A study of Mus musculus with 2 samples.

Results

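The genes described are the CC chemokine ligands Ccl3, Ccl4 and Ccl5 and the chemokine receptor Ccr1, taken by symbol from the gene tables of 2 single-cell RNA-seq libraries of mouse brain immune cells. All 4 were found once among the 32285 genes of each table, and each is described in every immune cell class. The mice carried GL261, a mouse glioma line placed in the brain on day 0, and all of them received anti-PD-1, an antibody against an inhibitory T cell receptor, at 200 µg into the peritoneum on days 10, 13 and 16. On day 20 the brains of 5 wild-type mice were pooled into 1 library and the brains of 5 mice labelled Fcgr2b knockout into the other, and live CD45.2-positive cells were sorted, so cells without CD45.2 are not represented. No library without anti-PD-1 was among the samples, and the labels give neither age, sex nor strain. The labels name polyA RNA for the wild-type library and total RNA for the other, and the sorting text speaks of lung where the tissue is brain.

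After filtering, 3538 wild-type cells and 8145 cells of the library labelled knockout remained, with medians of 2598 and 3959 unique molecular identifiers (UMIs, counted RNA molecules) per cell. The libraries shared 46 cell barcodes. Fcgr2b, an inhibitory Fc receptor and the gene named in the label, gave 367 counts per 1000000 UMIs (CPM) in wild-type macrophages and monocytes and 248 CPM in those labelled knockout, and 118 and 78.4 CPM in B or plasma cells. Its RNA was therefore still counted in the library labelled knockout, reads outside a deleted stretch would check nothing, and the sources used here do not give which part of the gene is missing. Every direction below rests on that label. Because there is 1 library per genotype, no test between genotypes was possible, so no p-value is given. The 95% intervals are exact and cover counting error only.

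CC chemokines are small secreted proteins that guide leukocytes through G protein-coupled receptors. Ccl3 and Ccl4 (macrophage inflammatory proteins 1 alpha and 1 beta) are made quickly by activated macrophages, microglia, T cells and NK cells, whereas Ccl5 (RANTES) is kept up by effector and memory CD8 T cells and NK cells. Ccr1 binds Ccl3 and Ccl5 and is carried by monocytes, neutrophils and other myeloid cells. In brain tissue, Ccl3 and Ccl4 are also known as genes that microglia switch on during handling and enzymatic dissociation.

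In the GRCm38 build with GENCODE annotation, the ligand genes lie together on chromosome 11. Ccl3 covers chr11:83647844-83649355 on the minus strand, Ccl4 chr11:83662584-83664683 on the plus strand and Ccl5 chr11:83525778-83530518 on the minus strand, each with 3 exons. Ccl3 and Ccl4 are 13228 bases apart, and Ccl5 is 117325 bases from Ccl3. Ccr1 covers chr9:123962124-123968692 on the minus strand, with 2 exons. The longest exact run that Ccl3 and Ccl4 transcripts share is 9 bases, and no pair of the 4 genes shares a run above 13 bases. The 5' kit counts the RNA end next to the promoter, and the 250 bases before the RefSeq start (GRCm38.p6) are shown for the ligand and the receptor that the RefSeq table holds. The Ccl3 promoter is chr11:83649379-83649628 and the Ccr1 promoter chr9:123968693-123968942, both printed 5' to 3' on the minus strand with motif matches in capitals.
Ccl3: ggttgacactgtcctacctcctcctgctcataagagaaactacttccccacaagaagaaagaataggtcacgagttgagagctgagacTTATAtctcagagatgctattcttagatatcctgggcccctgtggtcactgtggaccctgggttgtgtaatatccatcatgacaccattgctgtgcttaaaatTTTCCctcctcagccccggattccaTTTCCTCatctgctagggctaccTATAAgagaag
Ccr1: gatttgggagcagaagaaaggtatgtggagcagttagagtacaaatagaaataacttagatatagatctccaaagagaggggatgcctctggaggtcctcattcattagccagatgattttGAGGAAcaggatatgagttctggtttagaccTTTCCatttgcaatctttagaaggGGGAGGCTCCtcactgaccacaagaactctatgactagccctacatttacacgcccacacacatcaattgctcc
Motifs were searched on both strands. Distances are from the RefSeq start, which for Ccl3 lies upstream of the GENCODE start given above. TATAA was found 162 and 11 bases before the Ccl3 start and not in the Ccr1 window; 22.8% of 32851 promoters hold it. GAGGAA, the core of the motif of the myeloid factor PU.1, was found once in each window, 33 bases before Ccl3 and 129 bases before Ccr1, and in 23.2% of promoters. TTTCC, the core of the NFAT motif, was found 59 and 34 bases before Ccl3, where the nearer match overlaps the PU.1 match, and 98 bases before Ccr1, and in 55.6% of promoters. The NF-kB motif was matched 74 bases before Ccr1 and not before Ccl3 (7.25% of promoters), and the AP-1 motif TGANTCA was in neither window (6.75% of promoters). These are letter matches, not measured sites.

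Cells fell into 17 classes named from marker genes, and each class name stands for cells that resemble that type in RNA. Levels are CPM, the UMIs of a gene scaled to 1000000 UMIs of the class. Where values come in pairs, the wild-type library is first, and ratios put the library labelled knockout over it. Ccl3 and Ccl4 were highest in basophils, and were also high in microglia, neutrophils and, for Ccl4, plasmacytoid dendritic cells. Wild-type Ccl3 did not differ beyond counting error between neutrophils (4657 CPM, 4227 to 5119) and microglia (4239 CPM, 4004 to 4485). Ccl5 was highest in NK cells, CD8 T cells and migratory dendritic cells. Ccr1 was highest in neutrophils, macrophages and monocytes, basophils and type 2 dendritic cells and stayed at 7 CPM or less in the CD8, CD4, regulatory and mixed T cells and in NK cells. Droplets also hold free RNA from broken cells, so a background level was estimated per class and library from genes that the class should lack (T and NK genes, macrophage genes, basophil genes). T and NK genes were not applied to T and NK classes, so their estimates leave out free RNA from other T and NK cells. Macrophage genes were likewise not applied to microglia, neutrophils, or type 1, type 2 and migratory dendritic cells. A level at or below that estimate was read as background: Ccl3 and Ccl5 in B or plasma cells of both libraries, Ccl5 in basophils, Ccl3 in migratory dendritic cells of both libraries, Ccl4 in B or plasma cells and migratory dendritic cells of the library labelled knockout, and Ccl5 in type 1 dendritic cells of the library labelled knockout. In the wild-type library alone it also held for Ccl3 in type 2 dendritic cells, mixed T cells and mast cells and for Ccl5 in neutrophils. Ccr1 was at or below it in plasmacytoid and type 1 dendritic cells of both libraries and in wild-type migratory dendritic cells. Ccl5 was above it in wild-type type 1 dendritic cells (81.3 CPM) and in plasmacytoid dendritic cells (162 and 246 CPM). Among their cells without any counted UMI of T and NK genes, Ccl5 was 10.7 CPM, and 12.4 and 45.3 CPM. Among such cells it was 495 and 1148 CPM in type 2 dendritic cells, 4258 and 6239 CPM in migratory dendritic cells and 351 and 491 CPM in microglia.

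**Figure D1:**
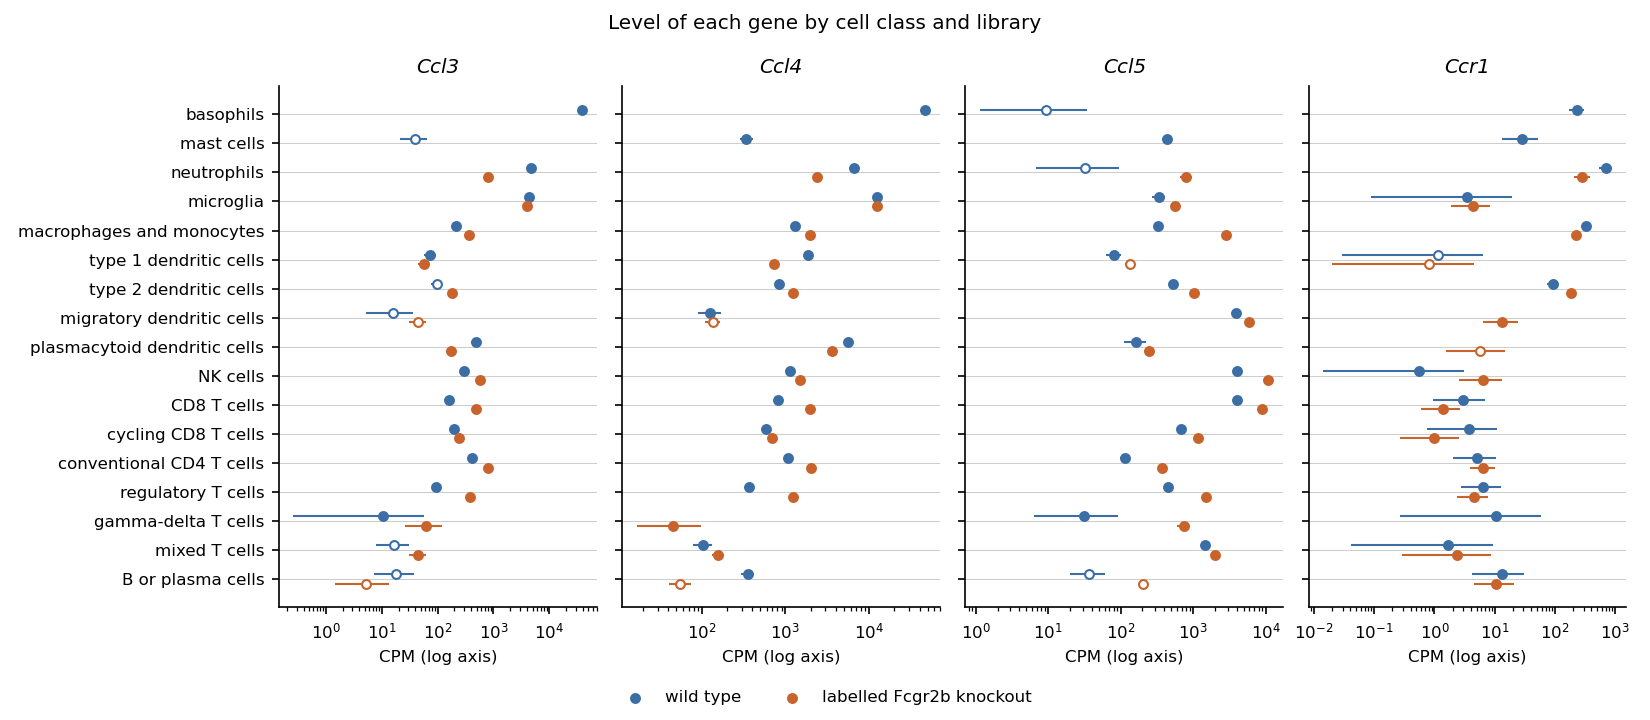
Level of each gene in CPM (log axis) by cell class, with 1 symbol per library and bars for the 95% Poisson interval; classes with at least 30 cells are drawn, open symbols are at or below the free RNA estimate, and levels of 0 are not drawn. Basophils stand at 38074 CPM for Ccl3 and 46154 CPM for Ccl4, while Ccl5 peaks in NK cells, CD8 T cells and migratory dendritic cells.

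Basophils carried the most Ccl3 and Ccl4 RNA. These granulocytes, marked here by Mcpt8 (a basophil protease, 1593 CPM), Il4 (5954 CPM) and Cd200r3 (665 CPM), numbered 105 among wild-type cells and 2 in the library labelled knockout. In the wild-type basophils Ccl3 was 38074 CPM (37248 to 38914) and Ccl4 46154 CPM (45244 to 47077). All 105 cells held UMIs of both genes, with medians of 69 and 78 UMIs per cell. Ccl3 and Ccl4 together made up a median of 7.76% of the UMIs of a basophil, from 0.284% in the lowest cell to 20.0% in the highest. The pair of genes was therefore present in every basophil but at levels that differed widely between cells. Wild-type basophils were ranked into 3 equal groups by the summed level of 14 stress and immediate-early genes, which dissociation can raise. The sums were 23367, 36102 and 65381 CPM. From the lowest to the highest group Ccl3 was 43346, 33768 and 37177 CPM and Ccl4 52668, 43867 and 41241 CPM. The part of handling in the basophil levels was not tested. Ccl5, by contrast, was at 0 in 104 of the 105 basophils (9.43 CPM, against 211 CPM that free RNA could give). Ccl3 gave 45.2% (44.5 to 45.9%) of the summed Ccl3 and Ccl4 UMIs in wild-type basophils. That share was 41.6% and 25.1% in neutrophils of the wild-type library and the library labelled knockout, 25.5% and 24.5% in microglia, 16.4% and 20.2% in CD8 T cells, 14.1% and 15.4% in macrophages and monocytes, and 3.83% and 7.33% in type 1 dendritic cells. The proportion of the 2 ligand RNAs therefore varied between classes.

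**Figure D2:**
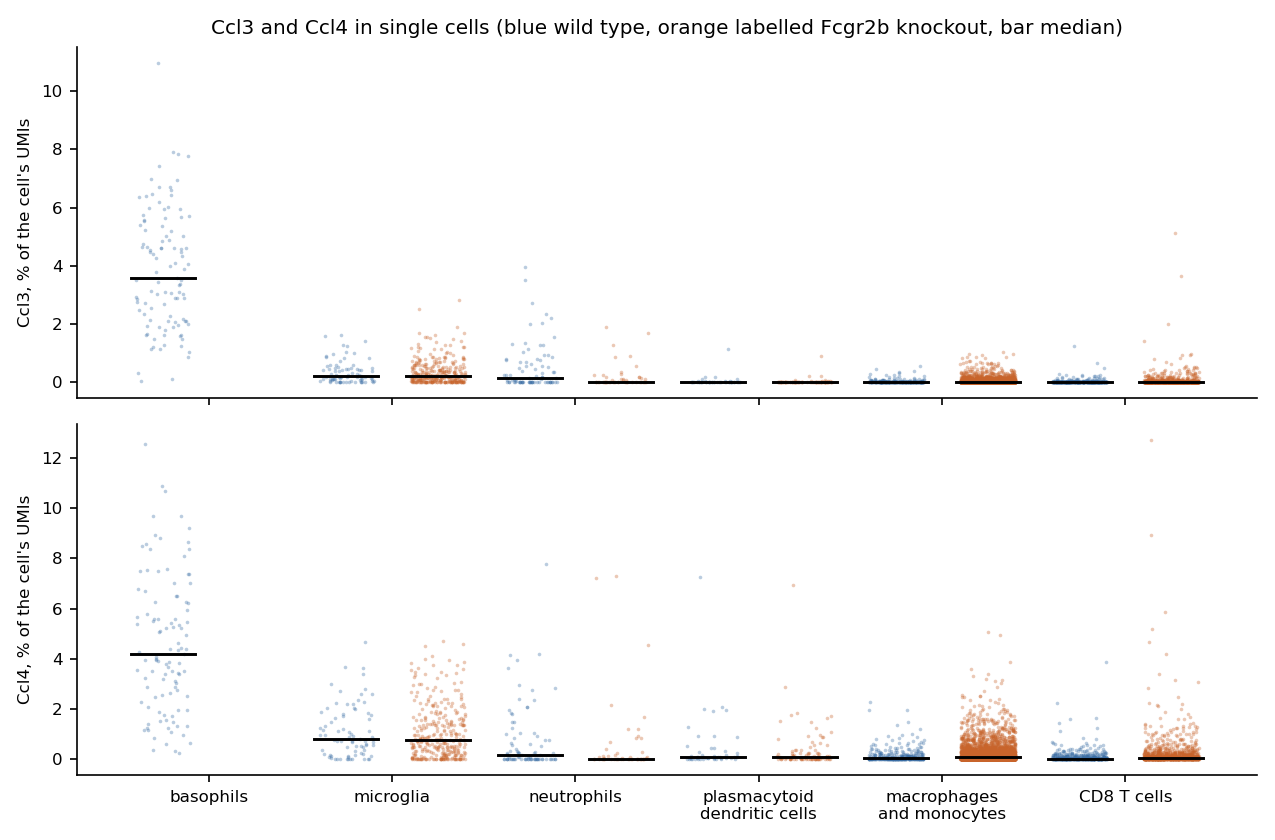
Percent of a cell's UMIs that are Ccl3 (upper panel) or Ccl4 (lower panel), per cell class, each point 1 cell (blue wild type, orange labelled knockout) and each bar a median; groups under 30 cells are not drawn. Wild-type basophils have medians of 3.59% for Ccl3 and 4.17% for Ccl4, above every other group drawn.

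Because basophils were nearly all in 1 library, they decided the library totals. They were 2.97% of the wild-type cells and held 67.8% (67.0 to 68.6%) of that library's Ccl3 UMIs and 38.9% of its Ccl4 UMIs. Over all cells, Ccl3 was 930 CPM in the wild-type library and 524 CPM in the library labelled knockout, a ratio of 0.564 (0.551 to 0.577). Without basophils it was 304 and 521 CPM, a ratio of 1.71 (1.66 to 1.77), the opposite direction. Ccl4 over all cells was 1966 and 2070 CPM (ratio 1.05), and 1223 and 2065 CPM without basophils (1.69). In the library labelled knockout the Ccl3 UMIs came from microglia (33.7%), macrophages and monocytes (26.6%), CD8 T cells (13.0%) and conventional CD4 T cells (9.92%). Its Ccl4 UMIs came mainly from macrophages and monocytes (37.1%).

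**Figure D3:**
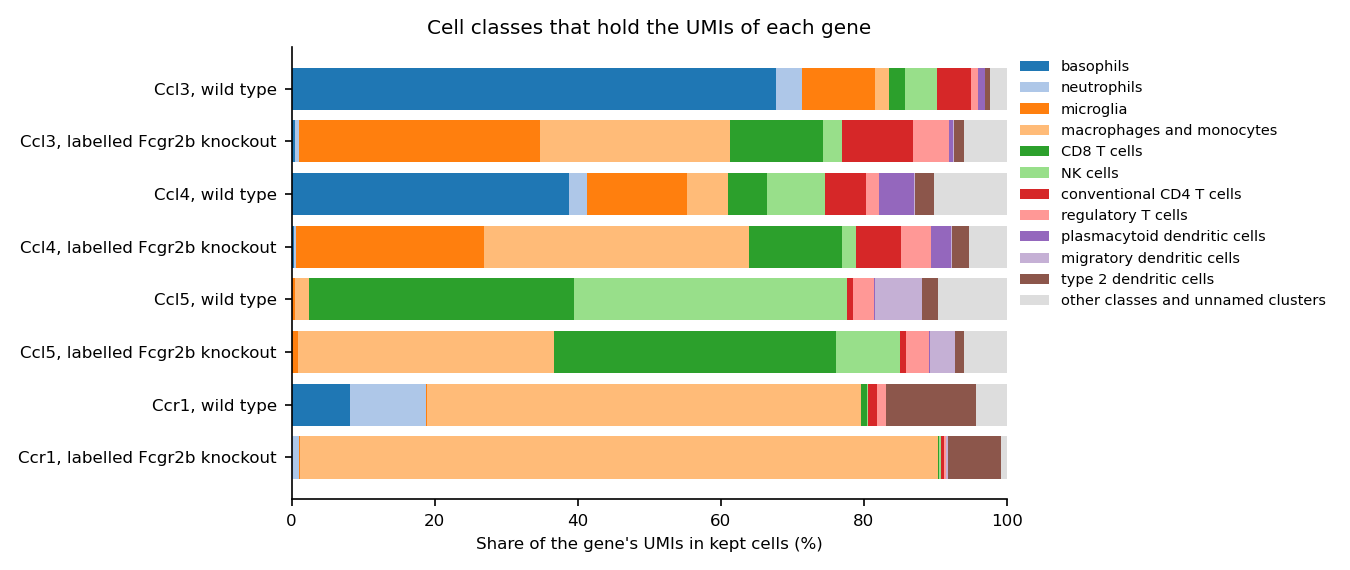
Percent of each gene's UMIs that each cell class holds, 1 stacked bar per gene and library. Basophils hold 67.8% of wild-type Ccl3, and macrophages and monocytes hold 60.7% of wild-type Ccr1 and 89.2% of Ccr1 in the library labelled knockout.

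Microglia also had high levels of both ligands, and these were close to each other in the 2 libraries. The class (78 wild-type and 322 other cells) carried its defining marker Tmem119, at 700 and 473 CPM. Ccl3 was 4239 CPM in wild-type microglia and 4039 CPM in the library labelled knockout, a ratio of 0.953 (0.897 to 1.01). Ccl4 was 12360 and 12446 CPM, a ratio of 1.01 (0.972 to 1.04). Both intervals hold 1. Single microglia varied much more: Ccl4 was a median of 0.80% and 0.753% of a cell's UMIs, at most 4.66% and 4.70%, and absent from 12.8% and 12.4% of the cells. In the smaller microglia cluster (8 and 31 cells) Ccl4 was 7211 and 890 CPM, against 12531 and 12934 CPM in the main cluster. With microglia picked by a marker gate per cell, the log2 ratios were -0.81 for Ccl3 and -0.57 for Ccl4, so the near equality depends on how microglia are delimited. All 52 wild-type cells of that gate were in the microglia class, against 183 of 257 (71.2%) in the library labelled knockout. There the gate also took in cells outside the class. The summed level of 14 stress and immediate-early genes, which dissociation can raise, was 34514 CPM in wild-type microglia and 24084 CPM in the others. When microglia were ranked by that sum into 3 equal groups, Ccl4 did not follow it, at 13405, 12614 and 10761 CPM from the lowest to the highest group of wild-type cells and 10046, 16222 and 11835 CPM in the other library. The part of dissociation in the microglia levels was not tested.

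Neutrophils had high Ccl3 and Ccl4 in the wild-type library and less in the library labelled knockout. Ccl3 was 4657 CPM in 83 wild-type neutrophils and 799 CPM in 50 others, a ratio of 0.172 (0.139 to 0.210). Ccl4 was 6552 and 2385 CPM, a ratio of 0.364 (0.319 to 0.415). Ccr1 was 693 and 282 CPM, a ratio of 0.407 (0.270 to 0.608). Of the 4 genes, 3 were at least 2-fold lower, but 19.5% of 3378 genes at 50 CPM or more in neutrophils were too (15.5% were 2-fold higher), so a 2-fold difference was common in this small class. The neutrophils of the libraries also differed in stage: Camp, a granule gene of precursors, was 4278 and 33717 CPM, and Cxcr2, a receptor of mature neutrophils, 639 and 288 CPM. The stress gene sum was 16592 and 9376 CPM. The part of either in the Ccl3 and Ccl4 values was not tested. Ccl5 was 32.5 and 806 CPM in neutrophils, but 113 of the 123 UMIs behind the higher level sat in 1 cell, and without it the level was 70.2 CPM, below the 254 CPM of the free RNA estimate.

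Among dendritic cells, Ccl4 was highest in the plasmacytoid subset and Ccl5 in the migratory subset. Plasmacytoid dendritic cells, the main producers of type I interferon, had 5643 CPM of Ccl4 in 48 wild-type cells and 3579 CPM in 94 others, and without the highest cell of each library 3460 and 3201 CPM. Their Ccl3, at 487 and 170 CPM, was 129 and 119 CPM on the same count, since 1 wild-type cell held 74.3% of the UMIs. Type 1 dendritic cells, which present antigen to CD8 T cells, had 1839 CPM of Ccl4 in the wild-type library and 730 CPM in the library labelled knockout, a ratio of 0.397 (0.365 to 0.431). This made Ccl4 1 of the 2.45% of genes that were 2-fold lower in that class. In type 2 dendritic cells, which present antigen to CD4 T cells, Ccl4 was 850 and 1236 CPM and Ccl5 523 and 1041 CPM. In migratory dendritic cells, which leave tissue for lymph nodes, Ccl5 was 3918 and 5940 CPM, a ratio of 1.52 (1.42 to 1.62). Free RNA could give 51.4 and 356 CPM of Ccl5 there.

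CD8, regulatory and conventional CD4 T cells of the library labelled knockout had more Ccl3 and Ccl4 RNA. In CD8 T cells (501 and 1262 cells) Ccl3 was 159 CPM in the wild-type library and 496 CPM in the other, a ratio of 3.12 (2.76 to 3.55). Ccl4 was 810 and 1961 CPM, a ratio of 2.42 (2.29 to 2.56). Free RNA of macrophages or basophils could give at most 7.10 CPM of Ccl3 and 28.0 CPM of Ccl4 in either library. All 3 ligands were at least 2-fold higher in CD8 T cells, as were 0.635% of 3150 genes. For Ccl4 and Ccl5 this call was lost with each cell weighted equally (log2 0.99 and 0.94) and as a mean over clusters (0.96 and 0.97). In regulatory T cells (286 and 464 cells), which restrain other T cells, Ccl3 was 95.3 and 382 CPM (ratio 4.01, 3.31 to 4.89) and Ccl4 364 and 1238 CPM (3.40, 3.08 to 3.76). Again all 3 ligands passed 2-fold, against 1.01% of 3559 genes. In conventional CD4 T cells Ccl3 was 409 and 791 CPM (1.93) and Ccl4 1063 and 2007 CPM (1.89), just under 2-fold. In cycling CD8 T cells the ratios were 1.23 for Ccl3 and 1.18 for Ccl4, and no ligand passed 2-fold. The summed stress genes were 7579 and 6429 CPM in CD8 T cells and 6848 and 5606 CPM in regulatory T cells. Within a library, Ccl4 of CD8 T cells rose with that sum. From the lowest to the highest of 3 equal groups by stress sum, it was 315, 881 and 1567 CPM in the wild-type library. In the other library it was 1007, 2234 and 3266 CPM. Ccl5 of CD8 T cells rose too, at 2633, 4569 and 5979 CPM in the wild-type library and 6131, 10177 and 12121 CPM in the other. Ccl5 of macrophages and monocytes did not follow the sum, at 222.5, 437.6 and 320 CPM and 2794, 2992 and 2810 CPM. The part of the stress genes in the Ccl3, Ccl4 and Ccl5 differences of T cells was not tested.

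The size of the CD8 difference depended on the cluster. In the Gzmb-rich effector cluster (217 and 448 cells; Gzmb encodes granzyme B) Ccl3 was 166 and 662 CPM (ratio 4.00) and Ccl4 734 and 2235 CPM (3.04). In the Gzmk-rich cluster (72 and 326 cells) Ccl3 was 344 and 517 CPM (1.51) and Ccl4 1742 and 2008 CPM (1.15). In the cluster richest in Ccl5 (212 and 488 cells) Ccl3 was 82.3 and 175 CPM (2.13) and Ccl4 665 and 1422 CPM (2.14). All 3 clusters had higher values in the library labelled knockout, by amounts between 1.15 and 4.00-fold.

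**Figure D4:**
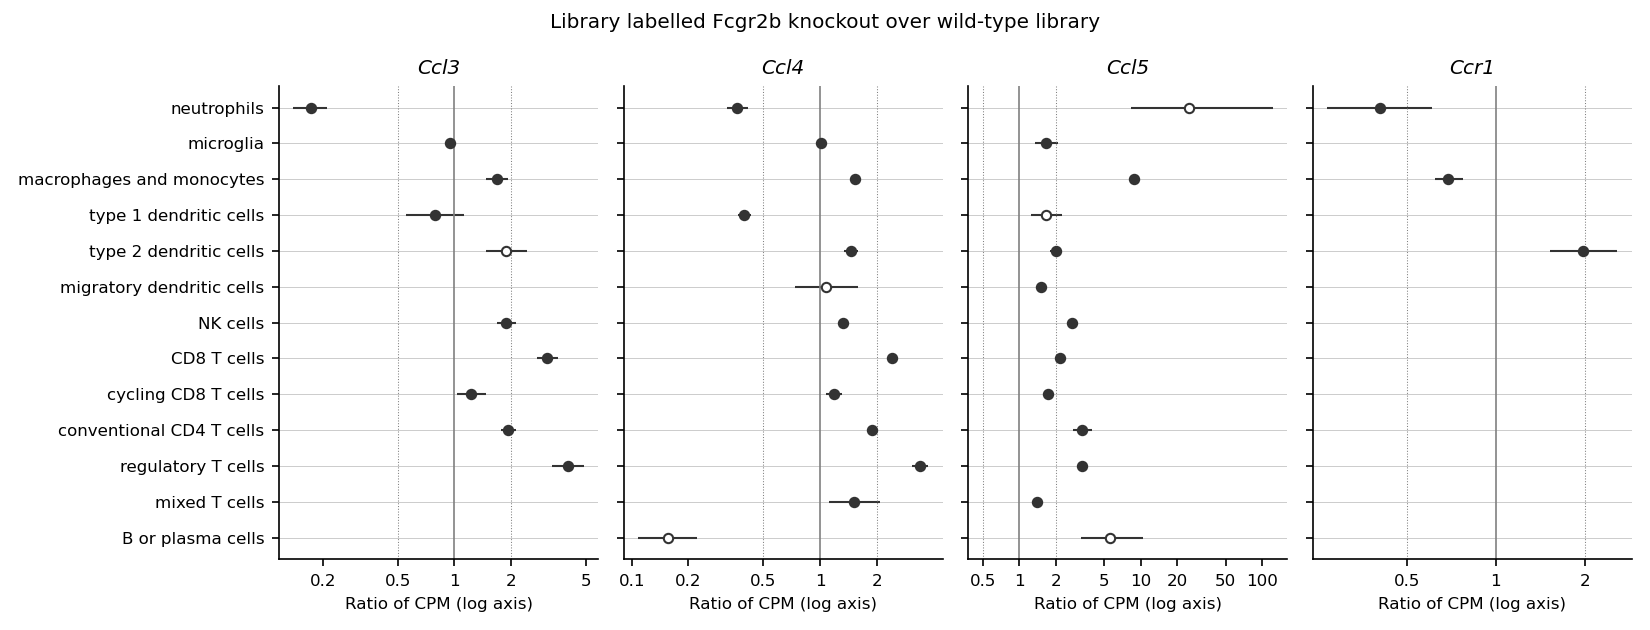
Ratio of CPM in the library labelled knockout over the wild-type library (log axis) by class, with 95% conditional intervals; dotted lines mark 0.5 and 2, genes under 50 CPM in both libraries are not drawn, and open symbols are at or below the free RNA estimate in at least 1 library. Ccl3 and Ccl4 lie above 2 in CD8 and regulatory T cells, near 1 in microglia and below 0.5 in neutrophils, and the highest filled symbol for Ccl5 is 8.85 in macrophages and monocytes.

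In NK cells, innate killers that also secrete these ligands, Ccl3 was 298 CPM in 792 wild-type cells and 565 CPM in 372 others (1.89), and Ccl4 1135 and 1511 CPM (1.33). Ccl5 was 4006 and 10890 CPM, a ratio of 2.72 (2.64 to 2.80), and was the 1 ligand past 2-fold, as were 0.981% of 3159 genes. NK cells formed a main cluster (778 and 248 cells) and a mature cluster led by Gzma, Klrg1 and Prf1 (14 and 124 cells). The mature cells had 17869 and 20267 CPM of Ccl5 and were 1.77% of wild-type NK cells and 33.3% of the others. Within the main cluster Ccl5 was 3825 and 7066 CPM, a ratio of 1.85 (1.78 to 1.91), under 2-fold, and Ccl4 1117 and 999 CPM, a ratio of 0.895 (0.822 to 0.973). The pooled Ccl5 ratio of NK cells thus holds a difference in subset shares, and the pooled Ccl4 ratio turned direction within the main cluster.

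Ccl5 was higher in the library labelled knockout across classes. It was above the free RNA estimate of both libraries in 10 of the 13 classes compared (those with 50 or more cells on each side). That estimate leaves out T and NK RNA in the T and NK classes. Ratios in the 10 classes ran from 1.4 in mixed T cells to 8.85 in macrophages and monocytes. In CD8 T cells Ccl5 was 4079 and 8908 CPM, a ratio of 2.18 (2.13 to 2.24). Per cell, the median share of UMIs was 0.324% and 0.739%. As counted, at medians of 2739 and 3852 UMIs per cell, 22.0% and 11.1% of CD8 T cells had no Ccl5 UMI. The part of depth in the shares of cells without Ccl5 was not tested. The Ccl5-rich CD8 cluster had 7245 and 14496 CPM and the Gzmb-rich cluster 2321 and 5496 CPM. Regulatory T cells had 451 and 1487 CPM (3.30, 3.02 to 3.61). Conventional CD4 T cells had 114 and 376 CPM (3.30, 2.79 to 3.93), which placed Ccl5 among the 0.86% of 3257 genes that were 2-fold higher there. In the library labelled knockout, free T and NK RNA could give 122 CPM of Ccl5 in macrophages and monocytes. It could give 356 CPM in migratory dendritic cells. How much of the 376 CPM in conventional CD4 T cells is free RNA was not tested. In B or plasma cells Ccl5 was 36.7 and 203 CPM, past 2-fold like 4.89% of genes, but both levels were within the free RNA estimates of 114 and 240 CPM. Ccl4 in that class was 356 and 55.8 CPM, 2-fold lower like 5.42% of genes, with 116 of the 136 wild-type UMIs in 1 cell and 53.2 CPM without it.

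Among the classes above the free RNA estimate in both libraries, the largest Ccl5 ratio was in macrophages and monocytes. Ccl5 was 324 CPM (291 to 359) in 340 wild-type cells and 2863 CPM (2837 to 2889) in 3569 cells of the library labelled knockout, a ratio of 8.85 (7.97 to 9.85). UMIs of the gene were in 18.8% and 76.6% of the cells, and in 13.5% and 60.5% after every cell was thinned to 1000 UMIs. It was the 1 gene of the 4 past 2-fold in this class, as were 5.38% of 3141 genes. Free RNA from T and NK cells could give 23.9 and 122 CPM. In the macrophages and monocytes with 0 UMIs of all T and NK genes, 273 and 2293 cells, Ccl5 was 328 and 2912 CPM, so its level was as high where no T or NK RNA was counted. The libraries filled this class from different clusters. A monocyte cluster led by Chil3 and Vcan held 55.6% of the wild-type cells and 2.07% of the others, and its Ccl5 was low in both, at 65.8 and 229 CPM (3.48, 2.42 to 5.06). In another classical monocyte cluster, well filled by both libraries (78 and 401 cells), Ccl5 was 749 and 3494 CPM (4.67, 4.03 to 5.44). In non-classical monocytes marked by Ace and Treml4 (20 and 83 cells) it was 540 and 1311 CPM (2.43, 1.66 to 3.69). The mean over these 3 clusters was 1.71 on the log2 scale, against 3.11 for the class sum. Without doublet removal the class value was 2.61.

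**Figure D5:**
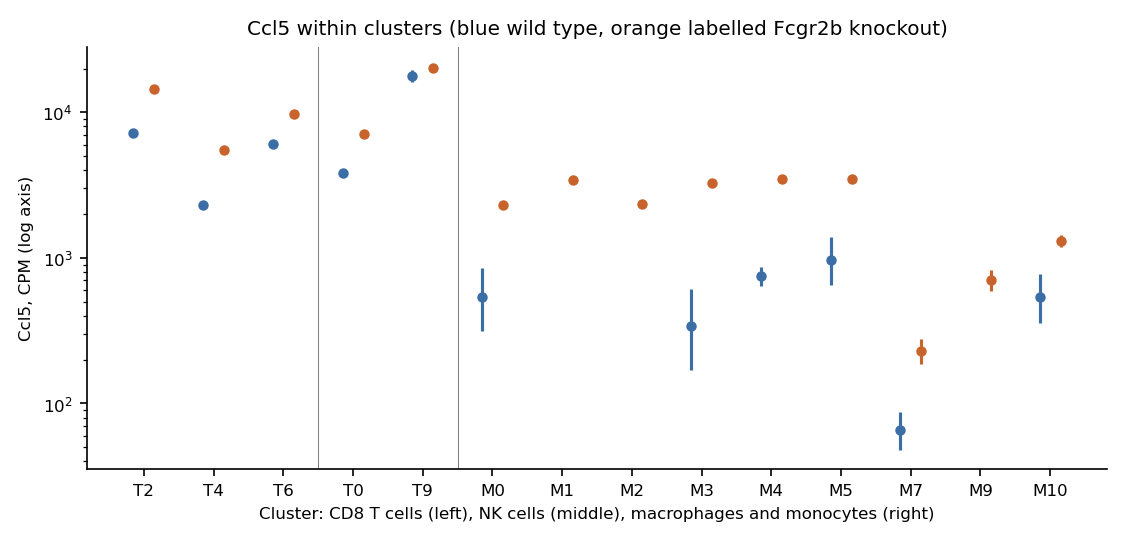
Level of Ccl5 in CPM (log axis) by cluster within CD8 T cells, NK cells, and macrophages and monocytes (blue wild type, orange labelled knockout), with 95% Poisson intervals; clusters with at least 10 cells in a library are drawn. Ccl5 is 65.8 and 229 CPM in the Chil3 and Vcan monocyte cluster (M7) and 749 and 3494 CPM in the other classical monocyte cluster, which both libraries fill (M4).

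Ccl3 and Ccl4 differed less in macrophages and monocytes. Ccl3 was 212 and 358 CPM (1.69, 1.48 to 1.93) and Ccl4 1296 and 1976 CPM (1.52, 1.45 to 1.61). With macrophages picked by a marker gate per cell, Ccl3 was 388 and 383 CPM, so its difference was lost. Within the Chil3 and Vcan monocytes the ratios were 1.30 (1.03 to 1.63) for Ccl3 and 1.74 (1.59 to 1.91) for Ccl4. In the other classical monocyte cluster they were 3.74 (2.24 to 6.74) and 1.47 (1.31 to 1.65). In the non-classical monocytes, with 20 wild-type cells, they were 1.14 (0.589 to 2.47) and 0.74 (0.554 to 1.01). The stress gene sum was higher in the library labelled knockout, at 14363 and 17688 CPM. Ccl4 followed that sum within each library, at 959, 1037 and 2103 CPM from the lowest to the highest of the 3 groups of wild-type cells and 1127, 2068 and 3451 CPM in the others. The part of the stress genes in the Ccl3 and Ccl4 difference was not tested.

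Ccr1, the receptor, was carried by myeloid classes. In the wild-type library it was 693 CPM (534 to 885) in neutrophils, 329 CPM (296 to 365) in macrophages and monocytes, 231 CPM (171 to 305) in basophils and 93.6 CPM (73.6 to 117) in type 2 dendritic cells. The intervals of macrophages and basophils overlap. In the library labelled knockout it was 282 CPM in neutrophils, 228 CPM in macrophages and monocytes and 185 CPM in type 2 dendritic cells. Microglia had 3.50 and 4.30 CPM, from 1 and 8 UMIs, so the class with much Ccl3 and Ccl4 RNA had almost no Ccr1 RNA. NK cells had 0.559 and 6.44 CPM, and wild-type plasmacytoid and migratory dendritic cells had 0 UMIs. In macrophages and monocytes the ratio was 0.692 (0.621 to 0.772), and in type 2 dendritic cells it was 1.97 (1.53 to 2.57). Within clusters Ccr1 was 384 and 322 CPM in the Chil3 and Vcan monocytes (0.839, 0.678 to 1.03), 310 and 337 CPM in the cluster filled by both libraries (1.09, 0.854 to 1.4) and 77.2 and 56.3 CPM in the non-classical monocytes (0.730, 0.246 to 2.92), all with intervals that hold 1; the last rests on 20 wild-type cells and its ratio is close to that of the class. The share of macrophages and monocytes with a Ccr1 UMI was 48.2% and 50.5% as counted and 28.7% and 20.0% after thinning. Fewer Ccr1 cells and less Ccr1 RNA per cell were not separated.

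Ccl3 and Ccl4 were found in the same cells more often than their single shares would give, while Ccl3 with Ccl5 stayed near the product of the shares. With every cell thinned to 1000 UMIs, 27 wild-type CD8 T cells held both Ccl3 and Ccl4 against 13.5 from the product of the shares, and 161 against 95.6 in the other library. In NK cells it was 75 against 39.0 and 55 against 34.2, in conventional CD4 T cells 24 against 8.24 and 45 against 16.5, and in macrophages and monocytes 22 against 16.5 and 553 against 374. The observed number was 1.18 and 1.12 times the product in microglia, where most cells hold both. For Ccl3 with Ccl5 the corresponding values were 1.05 and 1.09 in CD8 T cells and 0.88 and 0.97 in macrophages and monocytes. Ccl5 and Ccr1 in macrophages and monocytes gave 0.912 and 0.910. The wild-type macrophage value for Ccl3 with Ccl4 rests on 22 cells, too few to set it apart from 16.5. Shares were pooled over the clusters of a class, which differ in Ccl3 and Ccl4 level. The part of that pooling in the observed excess was not tested.

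Across 29 profiles of class and library, Ccl3 was most like Ccl4 (Pearson r 0.93 of log2(CPM + 10), among 6574 genes). The next genes were Spp1 (osteopontin, 0.82), Csf1 (the macrophage growth factor, 0.82), Plk3 (0.79) and Dusp6 (a MAP kinase phosphatase, 0.79). After Ccl3, Ccl4 was most like Spp1 (0.78), Abr (0.76), Il1a (interleukin 1 alpha, 0.74) and Mapkapk2 (0.74). Ccl5 was most like Gbp8 (an interferon-induced GTPase, 0.76), AW112010 (0.74), Epsti1 (0.74), Gm12216 (0.73) and Abcb1a (a drug efflux pump, 0.70), and had r of -0.26 with Ccl3 and -0.36 with Ccl4. Ccr1 was most like Sirpb1c (0.93), Clec4e (a myeloid lectin, 0.93), Ltb4r1 (the leukotriene B4 receptor, 0.92), F10 (0.92) and Tarm1 (0.91). Profiles of 1 library share its depth and free RNA, so these values are descriptive.

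The pathway list held 35 other genes (other Ccr1 ligands, receptor signalling, and regulators of ligand transcription or decay). Of 25 measured in CD8 T cells 0 were 2-fold higher and 0 lower, against 0.635% and 1.21% of all genes, so about 0 is what the share over all genes gives, with a median log2 ratio of -0.19 against -0.15 for all genes. In regulatory T cells it was 0 and 0 of 23, against 1.01% and 0.983% of all genes, with a median of -0.16 against -0.10. In macrophages and monocytes 3 of 24 were 2-fold higher and 2 lower, against 5.38% and 8.98% of all genes, with a median of -0.10 against -0.19. The higher ones were the ligand Ccl8 (18.1 and 658 CPM), the signalling brake Rgs1 (214 and 1329 CPM) and the NF-kB inhibitor Tnfaip3 (367 and 759 CPM). The lower ones were the Ccr1 ligands Ccl6 (419 and 201 CPM) and Ccl9 (446 and 88.5 CPM). In microglia 0 were higher and 4 of 26 lower, against 2.96% and 3.63% of all genes (median -0.38 against -0.24): Rgs2 (1350 and 543 CPM), Nfkbiz (1647 and 688 CPM), Rgs1 (1403 and 676 CPM) and Ccl9. In neutrophils 2 of 24 were higher and 8 lower, against 15.5% and 19.5% of all genes (median -0.62 against -0.10). Among the lower ones were the NF-kB targets Nfkbia (6650 and 1238 CPM), Nfkbiz (1820 and 452 CPM) and Tnfaip3 (1646 and 314 CPM). A link of these genes to Ccl3 and Ccl4 was not tested. Wild-type basophils also had 8278 CPM of Ccl6 and 4021 CPM of Ccl9.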

How the data were processed

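Brain immune cells of 2 libraries were analysed. The authors counted UMIs per gene and barcode, per the file headers with Cell Ranger 6.1.2, and the submitters' processing notes give mm10 (GRCm38) as the build; the deposited counts are not normalised. Depth was 12816246 and 42566810 UMIs in the cells kept, and a count of 0 cells (3 counts) allows a share of up to 0.0848% and 0.0368%. Kept barcodes had 200 or more genes and no more than 10% mitochondrial UMIs, and the highest scores against simulated doublets (0.8% per 1000 barcodes) were removed, 119 and 676 cells.

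Cells were clustered together without integration on 2000 variable genes and 30 components (Leiden, leidenalg 0.10.2, resolution 1), with the 4 genes and the pathway list left out of the clustering genes. Naming a cluster took 3 or more markers at 50 CPM and a log2 ratio of 1. Of 33 clusters, 4 (91 and 381 cells) stayed unnamed. Counts were summed by class and library. Classes holding 50 or more cells on both sides were compared by log2 ratios with 10 CPM added, for genes at 50 CPM or more in 1 library, and 2-fold was the call. Levels carry exact Poisson, shares Clopper-Pearson and ratios exact conditional intervals (scipy 1.17.1). Free RNA was the median ratio of class to library level over marker genes a class should lack, times the library level of the gene, the highest over donor lists; the basophil list was added after the data were seen. UMIs of 1 cell are not independent. The calculation was checked on Poisson counts drawn from the wild-type class sums. Of 200 genes changed 3-fold, 195 were found among 3001 in CD8 T cells and 197 among 2841 in macrophages and monocytes, with 0 false calls. These draws hold no spread between cells or libraries, so they cannot tell how many calls are false in the real data.

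Named genes were the 4 genes in every class, the 2 to 4 list genes of largest log2 ratio in the classes that carry a result, the 5 genes most like each of the 4, and marker genes beside a level. Where all called list genes of a class are named, and for Ccl6 and Ccl9 in basophils and Camp and Cxcr2 in neutrophils, they were chosen after their values were seen. The genes and lists were chosen with earlier results of these data known. Promoters came from RefSeq, which held 2 of the 4 genes.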

Additional observations from a re-analysis of the deposited data

Results flagged for a closer look

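The log2 ratio of the library labelled knockout over the wild-type library pointed in opposite directions in different classes for 3 of the 4 genes. With 1 library per genotype these differences between classes were not tested. Ccl3 was 1.58 in CD8 T cells and 1.90 in regulatory T cells but -2.53 in neutrophils. Ccl4 was 1.26 in CD8 T cells and 1.74 in regulatory T cells but -1.45 in neutrophils and -1.32 in type 1 dendritic cells. Ccr1 was 0.91 in type 2 dendritic cells but -0.51 in macrophages and monocytes and -1.27 in neutrophils. The classes named are past 2-fold for Ccl3 and Ccl4, but for Ccr1 only the counting interval had to exclude 1. At 2-fold Ccr1 would not be listed. Its interval rule was met upward by 19.3% of genes in type 2 dendritic cells. Downward it was met by 46% in macrophages and monocytes and 16.4% in neutrophils. Neutrophils were the smallest class compared, with 83 and 50 cells, and a 2-fold difference was common there.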

How the results depend on the processing

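No paired analysis was possible because there is 1 library per genotype, and for the same reason no replicate could be left out. Of 101 alternatives to the 10 log2 ratios of Ccl3, Ccl4, Ccl5 and Ccr1 in CD8 T cells, NK cells, macrophages and monocytes, and microglia, 68 moved the value by less than its counting interval, 32 moved it more and 1 turned the direction of a ratio whose interval excludes 1: Ccl3 in macrophages by marker gate, -0.0198. The microglia ratios, -0.07 for Ccl3 and 0.0099 for Ccl4, have intervals that hold 1, and several alternatives below changed their sign. Where no other cause is named, the cause was not tested. Each cell weighted equally, the CD8 values were 1.15 for Ccl3, 0.99 for Ccl4 and 0.94 for Ccl5, Ccl5 was 1.25 in NK cells and 2.89 in macrophages, and Ccl4 in microglia -0.047; the CD8 Ccl4 and Ccl5 values were then under 2-fold. As a mean over clusters, which removes differences in cluster shares, the CD8 values were 1.17, 0.96 and 0.97, the last 2 again under 2-fold, Ccl5 was 0.88 in NK cells (main cluster only, also under 2-fold) and 1.71 in macrophages, and macrophage Ccl4 was 0.31 and Ccr1 -0.18. A median-of-ratios size factor, which moved the median of all genes by up to 0.21 in microglia, gave 1.39 for Ccl4 and 1.25 for Ccl5 in CD8 T cells, 1.495 for Ccl5 in NK cells, 0.77 for Ccl4, 3.27 for Ccl5 and -0.35 for Ccr1 in macrophages, and 0.14 for Ccl3 and 0.22 for Ccl4 in microglia. Marker gates gave 1.84 for Ccl3 and 1.31 for Ccl5 in CD8 T cells, 1.26 for Ccl5 in NK cells, 0.22 for Ccl4 in macrophages, and -0.81 for Ccl3 and -0.57 for Ccl4 in microglia. Without doublet removal Ccl5 in macrophages was 2.61 and Ccl4 in microglia -0.0526, and at most 5% mitochondrial UMIs gave 0.51 for Ccl4 in macrophages.

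Leaving out the highest cell of each library, the cells with T or NK UMIs, or the basophils was chosen after seeing the data. Without the highest cell Ccl5 in macrophages was 3.29 and Ccl4 in microglia 0.0776. Without basophils the ratio over all cells went from -0.82 to 0.76 for Ccl3 and from 0.07 to 0.75 for Ccl4. Without doublet removal the basophil share of wild-type Ccl4 was 37.8% (38.0% with at least 500 genes), the CD8 share of wild-type Ccl5 34.96%, and in the library labelled knockout the microglia share of Ccl3 30.7% and the macrophage shares of Ccl4, Ccl5 and Ccr1 39.0%, 38.4% and 86.5%. Thinned to 2000 UMIs, cells with Ccl3 and Ccl4 were 1.38 times the product of the shares in CD8 T cells and 1.27 times in macrophages of that library. Of 84 levels recomputed with the 4 genes among the clustering genes, 80 stayed within their counting interval. Depth limits Ccr1 in lymphocytes and microglia, where levels rest on 18 UMIs or fewer.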

Other observations

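Mast cells, found as 79 wild-type cells and 3 others, had 341 CPM of Ccl4 in the wild-type library, close to the 326 CPM that free RNA could give, and 39.1 CPM of Ccl3, below 154 CPM. Ccl5 in the same cells was 436 CPM, with 63 of 156 UMIs in 1 cell and 269 CPM without it. Free RNA could give 244 CPM of Ccl5 there. In the 49 wild-type mast cells with 0 UMIs of all T and NK genes, Ccl5 was 10.8 CPM, from 2 UMIs. Gamma-delta T cells, too few to compare (39 and 40 cells), had 31.1 and 746 CPM of Ccl5, with 68 of the 98 UMIs of the second level in 1 cell and 245 CPM without it. The 2 basophils of the library labelled knockout held 112 UMIs of Ccl3 and 249 of Ccl4, of which 94 and 220 were in the same 1 cell.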
